A study of Homo sapiens with 12 samples.

Results

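The genes described here are 39 subunits, regulators and target genes of the transcription factor NF-kB, listed by gene symbol, with no measured value in the rule although earlier results of these data were known, out of 57773 genes in the count tables. Of these, 37 were matched to a row of the tables and 36 had enough reads to be tested among the 21518 genes tested in all. IKBKG and SOD2 were not matched and were not analysed here, and CCL8, which encodes a monocyte-attracting chemokine, had 0 counts in all 12 libraries. The study sequenced bulk mRNA of WI-38 cells, human diploid lung fibroblasts in culture, to compare senescent cells in which the neurotrophin receptor TrkB (gene NTRK2) or its ligand BDNF had been silenced with control senescent cells. There were 4 groups of 3 libraries, and every group had been transfected with a pool of ON-TARGETplus siRNAs at 25 nM. The proliferating group carried the non-targeting siCtrl and was kept for 8 days in the DMSO vehicle. The 3 senescent groups carried siCtrl, siNTRK2 or siBDNF and were kept for 8 days in 50 µM etoposide, a topoisomerase inhibitor that damages DNA. Each siRNA target was silenced with 1 pool only, so that effects of a pool on other mRNAs cannot be told apart from silencing of its target.

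NF-kB is a family of dimers built from the subunits RELA, RELB, REL, NFKB1 and NFKB2. In resting cells, I-kappa-B proteins such as NFKBIA hold the dimers in the cytoplasm until the I-kappa-B kinases mark these inhibitors for degradation, and in the noncanonical branch the kinase NIK, encoded by MAP3K14, triggers processing of NFKB2. Released dimers raise transcription of cytokines, chemokines and adhesion molecules, which include much of the secretory phenotype of senescent cells, and also of their own inhibitors, which limits the response.

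The libraries held from 31567912 to 72328151 counts, and a floor of 3 counts corresponded to 0.0427 to 0.0916 CPM (counts scaled to a common library size, TMM-normalised), a limit that covers counting error only. BDNF mRNA fell by 1.79 on the log2 scale with siBDNF, and NTRK2 mRNA, at or under 15 counts in the siCtrl senescent libraries, had 0 counts in all 3 siNTRK2 libraries and was at least 3.37-fold lower. BDNF mRNA also rose with siNTRK2 (log2 fold change 0.33). Between siCtrl senescent and proliferating cells, edgeR's quasi-likelihood test detected no difference for BDNF (log2 fold change 0.037, adjusted p = 0.51) or NTRK2 (1.18, adjusted p = 0.19). All 7 fibroblast markers were present, with a summed level of 26767 to 28422 CPM in proliferating, 17920 to 20081 in siCtrl senescent, 22422 to 25078 in siNTRK2 and 19790.3 to 20284 CPM in siBDNF libraries. The summed level of 6 leukocyte markers was 0.520 to 0.622 CPM in proliferating, 2.22 to 2.69 in siCtrl senescent, 1.68 to 1.79 in siNTRK2 and 2.96 to 3.04 CPM in siBDNF libraries, and none of the 6 was at 0 in all libraries. The sum of 4 epithelial markers had the same order, with 0.233 to 0.342, 0.969 to 1.05, 0.671 to 0.905 and 1.23 to 1.48 CPM, and that of 3 endothelial markers was 0.460 to 1.25, 2.17 to 2.54, 1.47 to 2.10 and 2.11 to 3.14 CPM. The leukocyte and epithelial order, with proliferating lowest, then siNTRK2, siCtrl and siBDNF, was also that of several genes below, and the part of these markers in them was not tested. The study states in general terms that its in vitro experiments were repeated independently, but the labels tie no library to a culture, so p-values measure the spread between these libraries, which may be in part technical. In bulk RNA, fewer expressing cells and less mRNA per cell cannot be told apart.

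NF-kB recognises the kappa-B motif, a sequence of 10 bases. RefSeq promoters, here 250 bases before to 50 bases after each gene start on GRCh38.p14, were found for 32 of the 39 genes. The motif, searched on both strands with overlapping matches counted, was present for 16 of these 32 genes (50.0%), against 3619 of 27305 genes with a promoter in the table (13.3%). Matches were found for 4 of 4 inhibitor genes, 3 of 4 subunit genes, 5 of 9 regulator genes, 0 of 3 kinase genes and 4 of 12 target genes. In the direct comparison of the 2 silenced groups given below, 8 of 11 genes lower with siNTRK2 held a match. So did 1 of 2 higher genes and 7 of 16 genes that were tested but not found to differ. For siNTRK2 against siCtrl, 7 of 11 genes that fell, 0 of 3 that rose and 9 of 15 not found to differ held a match. For siBDNF against siCtrl, it was 1 of 2 that fell, 4 of 6 that rose and 11 of 21 others. Between siCtrl senescent and proliferating cells, it was 8 of 14 that fell, 6 of 9 that rose and 2 of 6 others. The windows below are those of the listed genes that held a match and whose mRNA level differed directly between siNTRK2- and siBDNF-transfected senescent cells, with the match nearest to the gene start in capitals. They are written 5′ to 3′ on the strand of the gene.
NFKBIA, chr14:35404811-35404840, minus strand: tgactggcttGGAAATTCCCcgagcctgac
NFKBIZ, chr3:101827757-101827786, plus strand: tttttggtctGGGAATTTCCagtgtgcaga
TNFAIP3, chr6:137867194-137867223, plus strand: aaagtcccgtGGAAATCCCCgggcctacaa
TNIP1, chr5:151081057-151081086, minus strand: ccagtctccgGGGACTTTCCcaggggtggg
BIRC3, chr11:102317339-102317368, plus strand: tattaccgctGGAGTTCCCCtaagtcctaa
TRAF3, chr14:102777406-102777435, plus strand: cgggcgcgccGGGGATTTCCagcgcgcgag
VCAM1, chr1:100719670-100719699, plus strand: tccccttgaaGGGATTTCCCtccgcctctg
CCL20, chr2:227813753-227813782, plus strand: tgatcaatggGGAAAACCCCatgtggcaac
PTX3, chr3:157436744-157436773, plus strand: ccaaattcagGGGAACTCCCgttaccgcag
The match of NFKBIA lay 81 to 72 bases before the gene start and that of VCAM1 62 to 53 bases before it. A match describes the letters of the window and does not show binding.

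**Figure D1:**
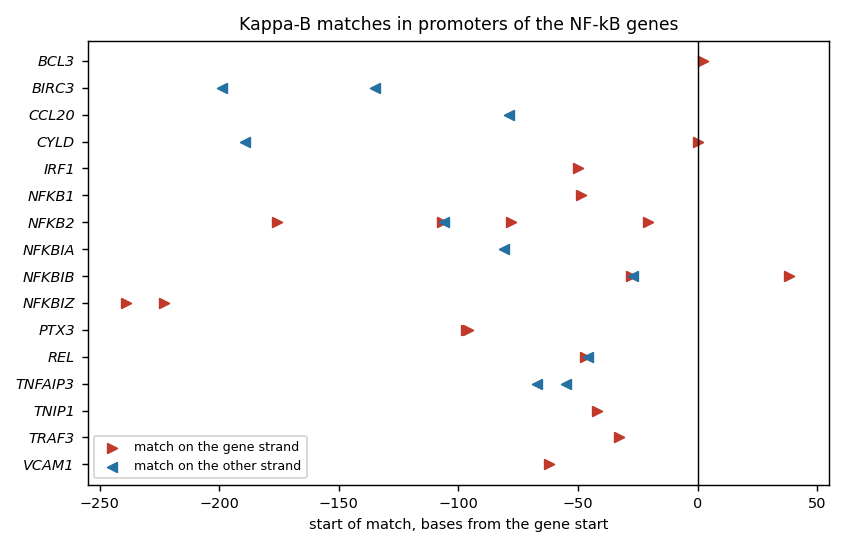
Position of each kappa-B match (x axis, bases from the gene start to the start of the match) in the promoters of the 16 listed genes (y axis) that held one. Arrowheads give the strand of the match, and alternative promoters of a gene share a row. NFKB2, CYLD and NFKBIZ held matches in more than 1 promoter. A match of CYLD, of BCL3 and of NFKBIB began 0, 2 and 38 bases after the start, respectively.

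Most of these genes differed between siCtrl-transfected senescent and proliferating cells, in both directions. Only the senescent cells had been kept in etoposide, so effects of the drug cannot be told apart from those of senescence. Changes with senescence, as written below, refer to this comparison. A gene is called here when its adjusted p was under 0.05 by edgeR's quasi-likelihood test with Benjamini-Hochberg adjustment over all genes tested, and differentially regulated when its absolute log2 fold change was also over 1. Between siCtrl-transfected senescent and proliferating cells, 29 of the 36 genes were called, against 58.1% of all genes tested. Of these, 12 rose (29.8% of all genes) and 17 fell (28.3%). The fold change passed the cutoff for 9 of them (16.7% of all genes): NFKBIZ, CCL20, CSF3 and PTGS2 rose (11.6% of all genes) and MAP3K14, TNFAIP3, VCAM1, CSF1 and PTX3 fell (5.16%). CSF3 passed it by the fitted value only, as the proliferating libraries had 0 counts. Against the floor of 3 counts its rise was at least 1.46-fold, a bound below the cutoff. The median log2 fold change of the 36 genes was 0.0016, beside 0.025 over all genes.

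With siNTRK2, senescent cells had lower levels of many of these mRNAs. Compared with siCtrl-transfected senescent cells, 17 of the 36 genes were called (21.1% of all genes). Of these, 14 fell (10.0% of all genes) and 3 rose (11.1%), and CCL20 and PTGS2 were differentially regulated, both lower (0.957% of all genes in either direction, 0.567% lower). Their median log2 fold change was -0.20, beside -0.0024 over all genes. With siBDNF, 11 of the 36 genes were called (20.5% of all genes), 8 higher (10.3%) and 3 lower (10.2%), with VCAM1 the 1 differentially regulated gene, lower (0.609% of all genes in either direction, 0.237% lower and 0.372% higher). The median with siBDNF was 0.06, beside 0.0040 over all genes. With library totals in place of TMM normalization, 15 genes were called with siBDNF, 12 of them higher, and the share of calls that were higher moved from 50.5% to 69.3% over all genes. Both siRNAs were compared with the same 3 siCtrl senescent libraries, so their values are set side by side.

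**Figure D2:**
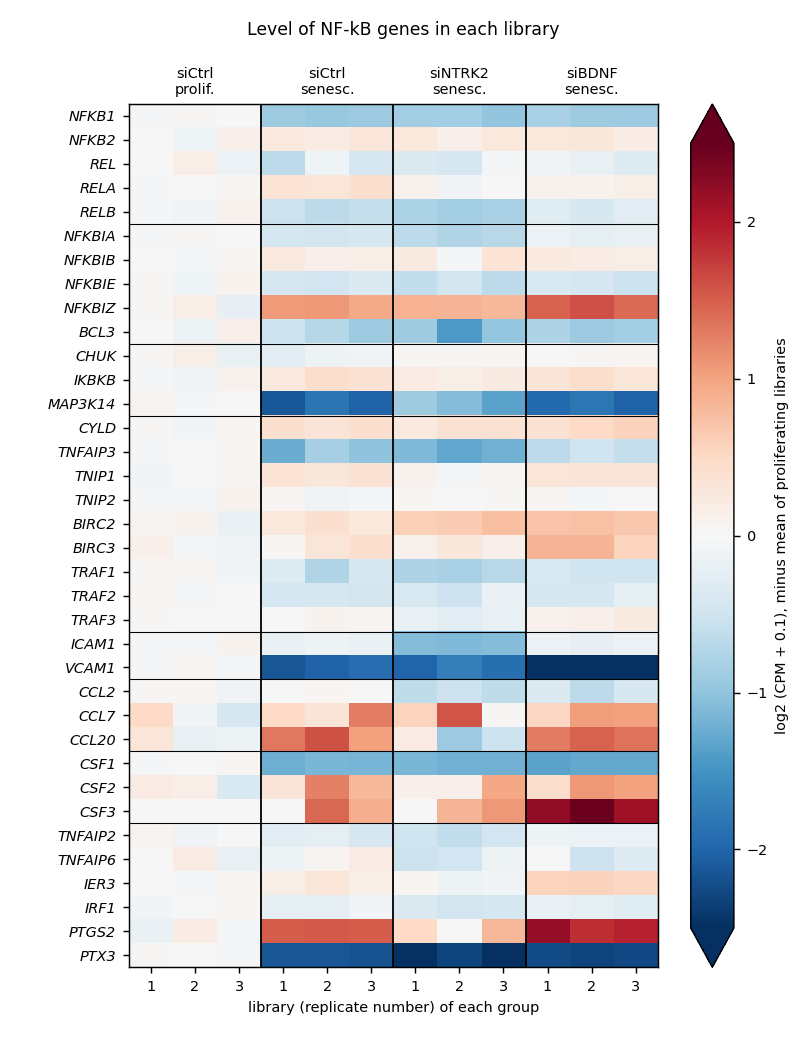
Level of each of the 36 tested genes (rows, grouped from top to bottom as subunits, inhibitors, kinases, other regulators, adhesion molecules, chemokines, colony-stimulating factors and other targets) in each of the 12 libraries (columns). Colour gives log2 (CPM + 0.1) minus the mean of the 3 proliferating libraries. PTX3, VCAM1 and MAP3K14 are low in the senescent groups, with MAP3K14 less so with siNTRK2, while PTGS2 and CSF3 are highest with siBDNF.

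The direct comparison of siNTRK2- with siBDNF-transfected senescent cells gave 16 called genes (16.7% of all genes). Of these, MAP3K14 and VCAM1 were higher with siNTRK2 (8.84% of all genes) and 14 were lower (7.86%). The fold change passed the cutoff for VCAM1, CCL20, CSF3 and PTGS2 (1.16% of all genes, 0.335% higher and 0.827% lower). The median log2 fold change was -0.18, beside -0.0037 over all genes. With library totals, 20 genes were called, 18 of them lower with siNTRK2, and the share of calls over all genes that were higher with siNTRK2 moved from 52.9% to 37.7%.

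Of the 5 subunits, RELA encodes p65, the main transactivating subunit. RELA mRNA measured 87.3, 88.7 and 93.0 CPM in the proliferating libraries, 113, 111 and 118 in siCtrl senescent, 96.9, 85.3 and 90.4 in siNTRK2 and 96.8, 95.7 and 99.7 CPM in siBDNF libraries. The siCtrl senescent libraries were above all 9 others. RELA mRNA rose with senescence (log2 fold change 0.35, SE 0.050, adjusted p = 1.8e-06) and fell both with siNTRK2 (-0.32, SE 0.050, adjusted p = 3.5e-05) and with siBDNF (-0.23, SE 0.050, adjusted p = 0.0018).

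NFKB1 encodes the p105 precursor of p50, the usual partner of p65. Its mRNA measured 49.3, 51.3 and 50.7 CPM in proliferating and 27.1, 26.0 and 26.8 CPM in siCtrl senescent libraries, and 25.2 to 28.7 CPM in the 6 libraries with siNTRK2 or siBDNF. NFKB1 mRNA fell by 0.92 on the log2 scale with senescence (SE 0.057, adjusted p = 4.9e-13). No call was made with siNTRK2 (adjusted p = 0.92) or siBDNF (adjusted p = 0.69). NFKB2, which encodes the p100 precursor of p52, measured 35.6, 33.0 and 38.9 CPM in proliferating, 42.5, 41.5 and 43.9 in siCtrl senescent, 43.1, 39.1 and 42.9 in siNTRK2 and 42.9, 43.4 and 40.5 CPM in siBDNF libraries. The proliferating libraries were below the 9 senescent ones, and NFKB2 mRNA rose with senescence (log2 fold change 0.25, SE 0.061, adjusted p = 9.95e-04).

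RELB encodes the partner of p52 in the noncanonical branch. Its mRNA measured 19.7, 19.6 and 22 CPM in proliferating, 14.1, 12.9 and 13.5 in siCtrl senescent, 11.7, 11.3 and 11.6 in siNTRK2 and 16.5, 15.5 and 16.8 CPM in siBDNF libraries. The 4 groups did not overlap, and the siBDNF libraries lay between the siCtrl senescent and the proliferating ones. RELB mRNA fell by 0.60 on the log2 scale with senescence (SE 0.072, adjusted p = 1.2e-07) and was higher with siBDNF than with siNTRK2 (log2 of siNTRK2 over siBDNF -0.49, SE 0.074, adjusted p = 2.5e-05). Against siCtrl, the fall with siNTRK2 was -0.23 (adjusted p = 0.029) and the rise with siBDNF 0.27 (adjusted p = 0.010). The fall was not called without siCtrl senescent library 1 or 3 or siNTRK2 library 2 or 3 (adjusted p = 0.064 to 0.13), without the filter on low counts (0.091) or in a fit of the 2 groups alone (0.067). The rise was not called without siBDNF library 3 (adjusted p = 0.065).

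REL encodes c-Rel, a subunit best known in lymphocytes. Its mRNA measured 2.96, 3.38 and 2.68 CPM in proliferating, 1.87, 2.77 and 2.22 in siCtrl senescent, 2.30, 2.22 and 2.94 in siNTRK2 and 2.84, 2.61 and 2.39 CPM in siBDNF libraries. The groups overlapped, and the fall with senescence (-0.40, SE 0.17, adjusted p = 0.041) was not called without proliferating library 1 or 2 or siCtrl senescent library 1 or 3 (adjusted p = 0.058 to 0.19), with DESeq2 (0.059) or with library totals (0.070). Nor was it called with at least 10 counts in every library (adjusted p = 0.065) or in a fit of the 2 groups alone (0.051). The exons of REL share 5702 bases on the same strand with the unnamed gene ENSG00000267520, so its counts are uncertain.

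**Figure D3:**
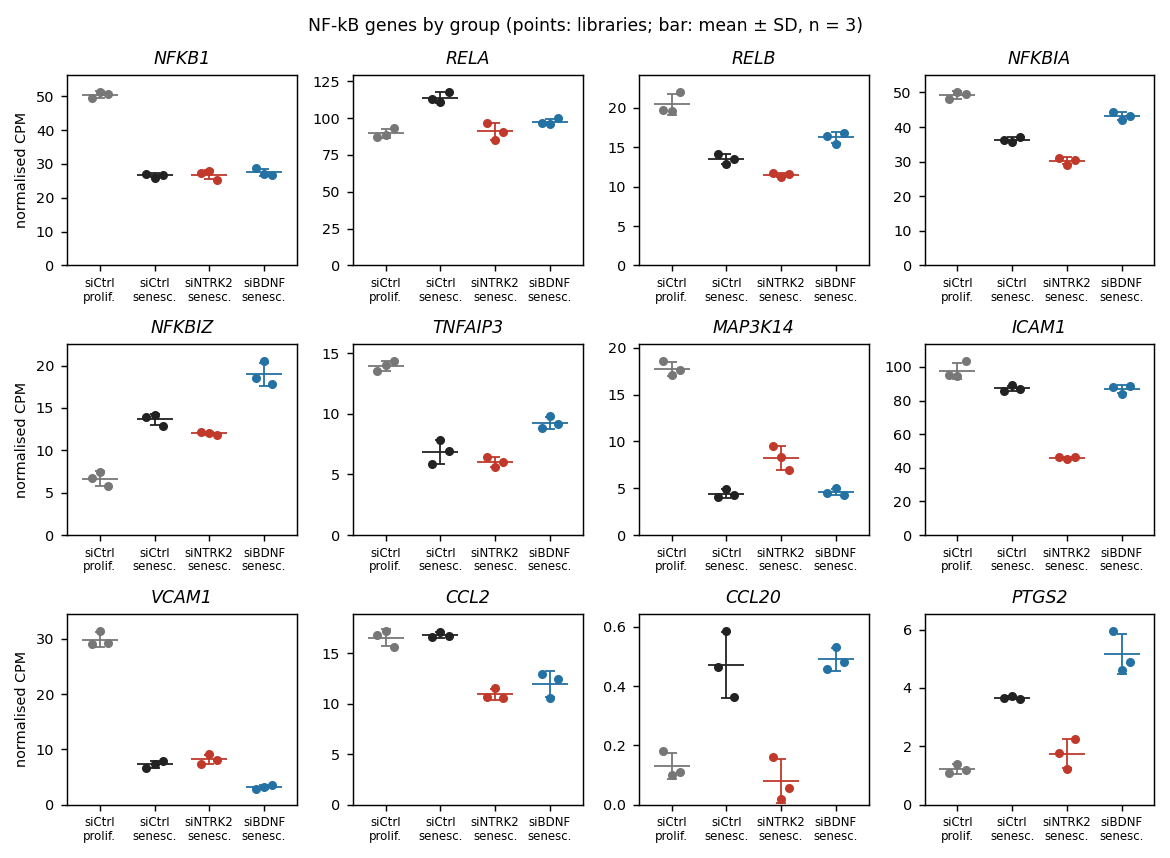
Normalised CPM of 12 NF-kB genes in each library (points) of the 4 groups, with the mean and SD of the 3 libraries as bars. Each panel has its own linear axis from 0. RELA is highest in siCtrl senescent cells, RELB, NFKBIA, NFKBIZ and TNFAIP3 are higher with siBDNF than with siNTRK2, ICAM1 is lowest with siNTRK2 and VCAM1 is lowest with siBDNF.

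Of the 5 genes for inhibitors and nuclear I-kappa-B proteins, all were called with senescence, 2 higher and 3 lower (29.8% and 28.3% of all genes). NFKBIZ, an inducible nuclear cofactor that NF-kB needs for a subset of secondary response genes, measured 6.78, 7.46 and 5.76 CPM in proliferating, 13.9, 14.1 and 12.9 in siCtrl senescent, 12.2, 12.1 and 11.8 in siNTRK2 and 18.6, 20.5 and 17.8 CPM in siBDNF libraries. The 4 groups did not overlap. NFKBIZ mRNA rose with senescence (log2 fold change 1.02, SE 0.090, adjusted p = 4.8e-10). The fold change was 0.93 without proliferating library 3 and 0.98 without siCtrl senescent library 2, below the cutoff. It rose further with siBDNF (0.48, SE 0.084, adjusted p = 1.9e-04), while with siNTRK2 the log2 fold change was -0.18 (adjusted p = 0.13). Between the siRNAs the log2 difference was -0.66 (SE 0.085, adjusted p = 2.9e-06). The exons of NFKBIZ share 194 bases on the same strand with NXPE3, whose counts were 602% of those of NFKBIZ. On the log2 scale NXPE3 fell by 0.13 with senescence, rose by 0.21 with siNTRK2 and was 0.26 higher with siNTRK2 than with siBDNF. The NFKBIZ values may include its reads, and their part was not tested.

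NFKBIA, the prototype inhibitor and itself an NF-kB target, averaged 49.3 ± 1.09 CPM in proliferating, 36.3 ± 0.759 in siCtrl senescent, 30.3 ± 1.0 in siNTRK2 and 43.2 ± 1.18 CPM in siBDNF cells (mean ± SD, n = 3). No 2 groups overlapped. Its mRNA fell by 0.44 on the log2 scale with senescence (adjusted p = 8.0e-08), fell again with siNTRK2 (-0.26, adjusted p = 8.2e-04) and rose with siBDNF (0.25, adjusted p = 0.0011), with a log2 difference between the siRNAs of -0.51 (SE 0.053, adjusted p = 1.0e-07).

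BCL3, a nuclear I-kappa-B protein that binds p50 and p52 dimers, fell with senescence (21.8 ± 1.92 to 13.2 ± 1.71 CPM, log2 fold change -0.72, adjusted p = 3.2e-06) and with siNTRK2 (10.2 ± 2.0 CPM, -0.37, adjusted p = 0.020). The latter call was lost without siCtrl senescent library 1 (adjusted p = 0.14) or siNTRK2 library 2 (0.15). NFKBIE, another cytoplasmic inhibitor, fell with senescence (-0.43, adjusted p = 2.8e-05). NFKBIB rose slightly (0.18, adjusted p = 0.046), a call lost without any 1 of the 6 libraries compared (adjusted p = 0.054 to 0.18) and without the filter on low counts (0.080). Neither NFKBIE nor NFKBIB was called with siNTRK2 (adjusted p = 0.17 and 0.95) or siBDNF (0.91 for both). The exons of NFKBIB share 40 bases with SIRT2 on the opposite strand, whose counts were 239% of those of NFKBIB. SIRT2 was not called with senescence (adjusted p = 0.36) and fell by 0.19 with siNTRK2 and 0.27 with siBDNF on the log2 scale. The NFKBIB values may include reads of SIRT2, and their part was not tested.

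The 3 kinase genes were all called with senescence (58.1% of all genes). MAP3K14, which encodes NIK, measured 18.5, 17.1 and 17.6 CPM in proliferating, 4.03, 4.94 and 4.29 in siCtrl senescent, 9.50, 8.33 and 6.91 in siNTRK2 and 4.52, 4.99 and 4.31 CPM in siBDNF libraries. The siNTRK2 libraries lay between the proliferating and the other senescent libraries without overlap. MAP3K14 mRNA fell by 2.0 on the log2 scale with senescence (SE 0.11, adjusted p = 4.7e-14) and rose with siNTRK2 (0.90, SE 0.11, adjusted p = 2.3e-06), but not detectably with siBDNF (adjusted p = 0.80). The direct difference between siNTRK2 and siBDNF was 0.84 (SE 0.11, adjusted p = 5.7e-06). The rise passed the fold cutoff without siNTRK2 library 3 (1.01) or siCtrl senescent library 2 (1.0).

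MAP3K14 lies at chr17:43340486-43394395 (GRCh37, minus strand). Its exons overlap those of the antisense gene MAP3K14-AS1 over 858 bases. The sources do not say whether reads were counted by strand, so the MAP3K14 values may include reads of MAP3K14-AS1 from these bases. MAP3K14-AS1 fell by 1.57 with senescence and rose by 1.17 with siNTRK2 on the log2 scale, and its counts amounted to 28.4% of those of MAP3K14. IKBKB, the catalytic kinase of the canonical branch, rose with senescence (30 ± 1.94 to 38.2 ± 2.64 CPM, log2 fold change 0.35, adjusted p = 3.8e-05). CHUK, the catalytic subunit IKK-alpha, fell with senescence (-0.18, adjusted p = 0.038) and rose with siNTRK2 (0.20, adjusted p = 0.046). The fall was lost without proliferating library 1 or 2 or siCtrl senescent library 1 (adjusted p = 0.069 to 0.23). It was lost too with DESeq2 (adjusted p = 0.059), its size factors in edgeR (0.057) and library totals (0.12). The same held with at least 10 counts in every library (0.086) and in a fit of the 2 groups alone (0.073). The rise was lost without siCtrl senescent library 1 or any 1 siNTRK2 library (adjusted p = 0.058 to 0.24). With siBDNF the log2 fold change of CHUK was 0.19 (adjusted p = 0.057), and it was called with DESeq2, library totals, either other filter on low counts or a fit of the 2 groups alone (adjusted p = 0.019 to 0.039).

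Of the 9 other regulators, 6 were called with senescence, 3 higher and 3 lower, a share of 66.7% near that of all genes (58.1%). TNFAIP3 encodes A20, a ubiquitin-editing enzyme that shuts off NF-kB signalling and is induced by it. Its mRNA measured 13.5, 14 and 14.3 CPM in proliferating, 5.83, 7.82 and 6.91 in siCtrl senescent, 6.43, 5.62 and 6.02 in siNTRK2 and 8.82, 9.78 and 9.18 CPM in siBDNF libraries. The siBDNF libraries were above the other 6 senescent libraries and below the proliferating ones. TNFAIP3 mRNA fell by 1.02 on the log2 scale with senescence (SE 0.098, adjusted p = 2.0e-09; -0.92 without siCtrl senescent library 1 and -0.99 with library totals, inside the cutoff). It rose with siBDNF (0.44, SE 0.10, adjusted p = 0.0024), and with siNTRK2 the log2 fold change was -0.18 (adjusted p = 0.22). Directly compared, siNTRK2 gave a lower level than siBDNF (-0.62, SE 0.10, adjusted p = 7.4e-05).

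TNIP1, a partner of A20, rose with senescence (112 ± 4.80 to 141 ± 4.31 CPM, log2 fold change 0.34, adjusted p = 1.1e-06) and fell with siNTRK2 (116 ± 5.42 CPM, -0.28, adjusted p = 9.7e-05), while siBDNF gave 139 ± 0.927 CPM (adjusted p = 0.85). CYLD, a deubiquitinase that restrains the pathway, rose with senescence (0.38, adjusted p = 4.2e-06) and was called with neither siRNA. TNIP2, a further A20 partner, was not called in any of the 4 comparisons, with group means of 30.5 to 31.5 CPM.

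The ubiquitin ligases BIRC2 (cIAP1) and BIRC3 (cIAP2) work with the TRAF adaptors downstream of TNF-family receptors, and BIRC3 is a known NF-kB target. BIRC2 mRNA rose with senescence (62.5 ± 6.07 to 77.5 ± 4.10 CPM, log2 fold change 0.31, adjusted p = 1.0e-04), and rose further with siNTRK2 (98.4 ± 5.17 CPM, 0.34, adjusted p = 1.4e-04) and with siBDNF (102 ± 2.02 CPM, 0.39, adjusted p = 3.5e-05). BIRC3 was not called with senescence (adjusted p = 0.081) or siNTRK2 (0.67) but rose with siBDNF (4.72 ± 0.655 to 6.73 ± 0.762 CPM, 0.50, adjusted p = 0.0041), and its level with siNTRK2 was below that with siBDNF (-0.60, SE 0.12, adjusted p = 0.0012). TRAF3, which promotes degradation of NIK, fell with siNTRK2 (47.8 ± 1.31 to 40 ± 1.29 CPM, -0.26, adjusted p = 6.9e-04) and was lower than with siBDNF (-0.37, adjusted p = 1.2e-05). TRAF1 and TRAF2 fell with senescence (-0.49 and -0.44, adjusted p = 7.7e-04 and 2.2e-04) and were called with neither siRNA.

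**Figure D4:**
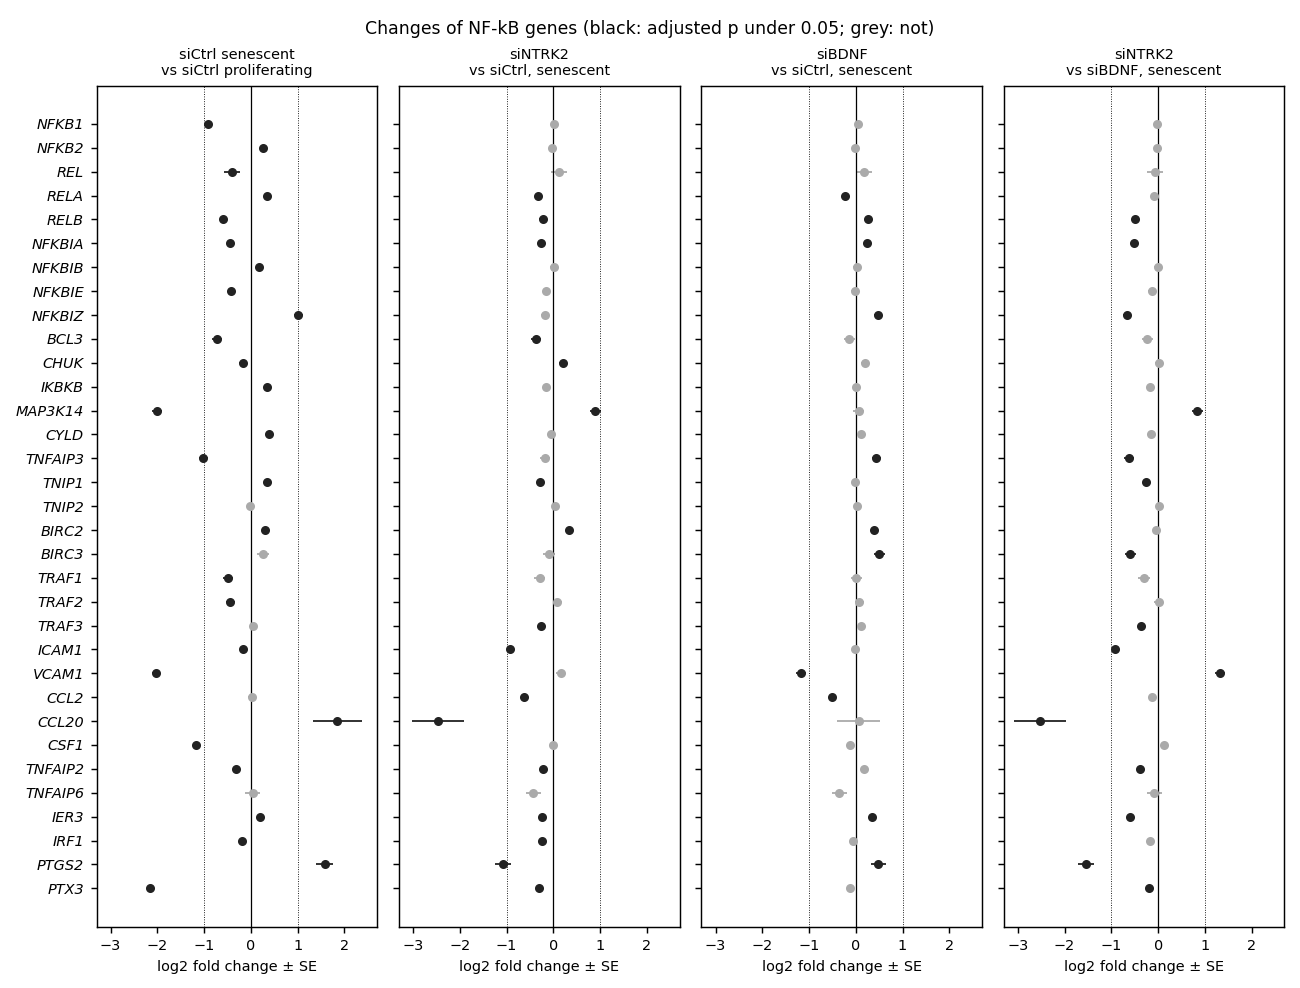
Log2 fold change and SE of the NF-kB genes (rows, in the same order of roles as the heat map) in the 4 comparisons (panels), with called genes in black and others in grey. Dotted lines mark the fold cutoff of 1 on the log2 scale. CCL7, CSF2 and CSF3, with few counts, were left out. ICAM1, CCL20 and PTGS2 lie to the left with siNTRK2, and VCAM1 lies to the left with siBDNF.

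The 2 adhesion molecules on which leukocytes dock both fell with senescence and responded differently to the siRNAs. ICAM1 mRNA was 94.5 to 103 CPM in proliferating, 86.0 to 89.1 in siCtrl senescent, 45.4 to 46.3 in siNTRK2 and 84.2 to 88.5 CPM in siBDNF libraries. The siNTRK2 libraries thus stood apart from all 9 others. ICAM1 fell by 0.93 on the log2 scale with siNTRK2 (SE 0.048, adjusted p = 9.7e-13), was not called with siBDNF (adjusted p = 0.95) and differed directly between the siRNAs (-0.92, SE 0.049, adjusted p = 5.3e-13). With senescence it fell by 0.16 (adjusted p = 0.0048). ICAM1 lies at chr19:10381769-10397291 (GRCh37, plus strand), and its exons overlap antisense genes: ICAM4-AS1, over 815 bases, fell by 0.79 and LIMASI, over 61 bases, fell by 0.29 with siNTRK2 on the log2 scale. Their counts were 27.1% and 19.8% of those of ICAM1, and the ICAM1 values may include reads of these genes.

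VCAM1 mRNA measured 29.0, 31.4 and 29.2 CPM in proliferating, 6.66, 7.29 and 7.93 in siCtrl senescent, 7.35, 9.11 and 8.01 in siNTRK2 and 2.84, 3.25 and 3.49 CPM in siBDNF libraries. The siNTRK2 and siCtrl senescent libraries overlapped, and the siBDNF libraries were lowest. VCAM1 fell by 2.04 with senescence (SE 0.090, adjusted p = 7.2e-16) and by a further 1.17 with siBDNF (SE 0.10, adjusted p = 1.4e-08) on the log2 scale. With siNTRK2 the log2 fold change was 0.16 (adjusted p = 0.26), and the direct difference of siNTRK2 from siBDNF was 1.33 (SE 0.10, adjusted p = 1.1e-09).

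Of the chemokines, CCL2, which attracts monocytes, was not called with senescence (16.6 ± 0.819 and 16.8 ± 0.270 CPM, adjusted p = 0.85) and fell with both siRNAs. The level was 10.9 ± 0.549 CPM with siNTRK2 (log2 fold change -0.62, SE 0.080, adjusted p = 3.6e-06) and 12 ± 1.26 CPM with siBDNF (-0.50, SE 0.080, adjusted p = 6.8e-05). The 2 silenced groups were not called apart (adjusted p = 0.35).

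CCL20, which attracts lymphocytes and dendritic cells through CCR6, had few reads. Its level was 0.179, 0.0997 and 0.108 CPM in proliferating, 0.463, 0.586 and 0.364 in siCtrl senescent, 0.162, 0.0202 and 0.0559 in siNTRK2 and 0.458, 0.532 and 0.480 CPM in siBDNF libraries, from 1 to 36 counts per library. The siNTRK2 libraries lay within or below the range of the proliferating ones and below all siCtrl and siBDNF senescent libraries, and siNTRK2 library 2 had 1 count, under the floor. CCL20 rose with senescence (log2 fold change 1.85, SE 0.53, adjusted p = 0.0042) and fell with siNTRK2 (-2.47, SE 0.56, adjusted p = 0.0022; -3.53 without siNTRK2 library 1). It was not called with siBDNF (adjusted p = 0.95), and the log2 difference between the siRNAs was -2.54 (SE 0.56, adjusted p = 0.0020; -3.60 without siNTRK2 library 1). With a minimum of 10 counts in every library CCL20 was not tested. CCL7, a monocyte chemokine of the CCL2 cluster, had 0 to 15 counts per library and was not called in any comparison.

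The colony-stimulating factors drive growth of myeloid cells. CSF1, the macrophage factor, measured 83.0, 87.1 and 89.2 CPM in proliferating and 37.1, 39 and 38.4 CPM in siCtrl senescent libraries, and fell by 1.18 on the log2 scale with senescence (SE 0.051, adjusted p = 3.9e-16). It measured 39.1, 37.4 and 37.7 CPM with siNTRK2 and 33.9, 35.4 and 35.5 CPM with siBDNF, and was called with neither (adjusted p = 0.96 and 0.089).

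CSF3, the granulocyte factor, had 0 counts in the 3 proliferating libraries, and its level was 0, 0.172 and 0.0866 CPM in siCtrl senescent, 0, 0.0806 and 0.112 in siNTRK2 and 0.366, 0.443 and 0.335 CPM in siBDNF libraries. The siBDNF libraries, with 12 to 30 counts, were above all others. Measured against a floor of 3 counts per library, CSF3 was at least 1.46-fold higher in siCtrl senescent than in proliferating cells (adjusted p = 0.012, and 0.072 without siCtrl senescent library 2). With siBDNF against siCtrl the log2 fold change was 2.11 (SE 0.78, adjusted p = 0.061), with an adjusted p of 0.048 with a replicate block (2.33), of 0.015 in a fit of the 2 groups alone and of 0.038 without siCtrl senescent library 2 (3.07). With siNTRK2, CSF3 was below its level with siBDNF (-2.59, SE 0.83, adjusted p = 0.034). This call was lost without any 1 siBDNF library or without siNTRK2 library 1 or 2 (adjusted p = 0.064 to 0.13), with a value of -1.96 without siNTRK2 library 1 and of -3.29 without siNTRK2 library 3. CSF2, the granulocyte-macrophage factor, had 1 to 17 counts per library, with a log2 fold change of 1.43 with senescence (SE 0.69, adjusted p = 0.079).

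Among the other targets, PTGS2 encodes the inducible cyclooxygenase COX-2. Its mRNA measured 1.08, 1.40 and 1.19 CPM in proliferating, 3.65, 3.72 and 3.64 in siCtrl senescent, 1.76, 1.23 and 2.24 in siNTRK2 and 5.95, 4.62 and 4.90 CPM in siBDNF libraries. Among senescent cells the groups did not overlap, with siNTRK2 lowest and siBDNF highest, and the siNTRK2 range overlapped that of proliferating cells. PTGS2 rose with senescence (log2 fold change 1.57, SE 0.18, adjusted p = 4.9e-08) and fell with siNTRK2 (-1.07, SE 0.17, adjusted p = 6.5e-05; -0.87 without siNTRK2 library 2, inside the cutoff). The rise with siBDNF (0.48, SE 0.16, adjusted p = 0.033) was lost without siBDNF library 1 or 3 or any 1 siCtrl senescent library (adjusted p = 0.058 to 0.17). The direct difference was -1.55 (SE 0.17, adjusted p = 2.9e-07).

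PTX3 encodes a secreted pentraxin that marks pathogens. Its mRNA measured 192, 187 and 185 CPM in proliferating, 42.8, 42.5 and 41.4 in siCtrl senescent, 32.9, 38.2 and 31.5 in siNTRK2 and 39.6, 38.0 and 39.3 CPM in siBDNF libraries. The proliferating libraries stood far above the 9 senescent ones. PTX3 fell by 2.15 on the log2 scale with senescence (SE 0.057, adjusted p = 2.6e-20) and by 0.31 with siNTRK2 (SE 0.058, adjusted p = 3.9e-04), and was not called with siBDNF (adjusted p = 0.17). The difference between the siRNAs (-0.19, adjusted p = 0.026) was lost without any 1 siBDNF library or siNTRK2 library 1 or 3 (adjusted p = 0.052 to 0.16), or in a fit of the 2 groups alone (0.059). The exons of PTX3 share 71 bases with VEPH1 on the opposite strand, whose counts were 57.6% of those of PTX3. VEPH1 fell by 0.29 with senescence on the log2 scale. The PTX3 values may include reads of VEPH1, and their part was not tested.

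IER3, an early response gene that modulates cell survival, rose with senescence (57.3 ± 2.0 to 65.9 ± 4.02 CPM, log2 fold change 0.20, adjusted p = 0.0029), fell with siNTRK2 (55.2 ± 3.62 CPM, -0.25, adjusted p = 0.0017) and rose with siBDNF (83.9 ± 1.25 CPM, 0.35, adjusted p = 4.9e-05). The difference between the siRNAs was -0.60 (SE 0.055, adjusted p = 1.3e-08). The antisense gene IER3-AS1, which shares 440 exonic bases with IER3, rose with siBDNF by 0.36 on the log2 scale; its counts were 26.4% of those of IER3, whose values may include its reads. IRF1, an interferon-response transcription factor, fell with senescence (-0.18, adjusted p = 0.019) and with siNTRK2 (-0.24, adjusted p = 0.012). These calls were lost without proliferating library 3 (adjusted p = 0.058) or siCtrl senescent library 1 (0.088) or with library totals (0.057), and without siCtrl senescent library 3 (0.12), respectively. The antisense gene IRF1-AS1 shares 2805 exonic bases with IRF1, whose values may include its reads. Its counts were 8.4% of those of IRF1. IRF1-AS1 rose by 0.58 with senescence and fell by 0.55 with siNTRK2 on the log2 scale.

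TNFAIP2, induced by TNF in endothelial cells, fell with senescence (31.6 ± 1.79 to 25.4 ± 1.88 CPM, -0.31, adjusted p = 2.3e-04) and with siNTRK2 (21.8 ± 0.976 CPM, -0.22, adjusted p = 0.016). The latter call was lost without siCtrl senescent library 1 or 2 or siNTRK2 library 2 (adjusted p = 0.063 to 0.11). With siBDNF the log2 fold change was 0.17 (adjusted p = 0.064), and it was called with library totals, with at least 10 counts in every library, in a fit of the 2 groups alone or without siCtrl senescent library 2 (adjusted p = 0.018 to 0.042). The level with siNTRK2 was below siBDNF (-0.40, adjusted p = 1.0e-04). TNFAIP6, a hyaluronan-binding secreted protein, was called in no comparison, with a log2 fold change of -0.43 with siNTRK2 (adjusted p = 0.058, 0.046 with DESeq2 and 0.026 without siNTRK2 library 3).

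By role, the 14 tested target genes included 8 that fell and 0 that rose with siNTRK2, and 2 that fell and 2 that rose with siBDNF. The 22 genes of the signalling machinery included 6 that fell and 3 that rose with siNTRK2, and 1 that fell and 6 that rose with siBDNF. Over all genes tested, 10.0% fell and 11.1% rose with siNTRK2, and 10.2% fell and 10.3% rose with siBDNF. The 3 machinery genes that rose with siNTRK2 and the 1 that fell with siBDNF are near or below the share of all genes. The target genes called with siBDNF, 2 in each direction, are also near it. Side by side, NFKBIA, RELB, IER3 and PTGS2 were called lower with siNTRK2 and higher with siBDNF. RELA and CCL2 were called lower with both, and BIRC2 was called higher with both. The share of all genes with such paired calls was not computed, and both comparisons use the same siCtrl senescent libraries. Among these calls, those of RELB with either siRNA and of PTGS2 with siBDNF were lost under some alternatives.

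Of 26 other genes of the pathway (receptors, adaptors, linear-ubiquitin enzymes and further regulators), 25 were tested. With senescence 5 rose and 9 fell, with siNTRK2 4 rose and 2 fell, and with siBDNF 3 rose and 3 fell. The shares called (56%, 24% and 24%) were near those of all genes (58.1%, 21.1% and 20.5%). TRAF5, an adaptor of TNF-family receptors, fell by 1.67 on the log2 scale with senescence (10.0 ± 0.525 to 3.17 ± 0.206 CPM, adjusted p = 1.0e-11) and rose with siNTRK2 (5.89 ± 0.827 CPM, 0.89, SE 0.12, adjusted p = 9.0e-06). It was higher with siNTRK2 than with siBDNF (0.73, adjusted p = 1.1e-04). TNFRSF1B, the TNF receptor 2, fell by 1.34 with senescence (14.8 ± 0.888 to 5.82 ± 0.514 CPM, adjusted p = 1.0e-10) and rose with siBDNF (10.3 ± 0.347 CPM, 0.81, SE 0.11, adjusted p = 8.7e-06). TLR4, the lipopolysaccharide receptor, had 0 counts in proliferating libraries and was at least 2.54-fold higher in siCtrl senescent cells (adjusted p = 9.2e-04).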

How the data were processed

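Bulk RNA-seq of 12 WI-38 libraries in 4 groups of 3 was used. The deposited values are counts of reads for each Ensembl gene, without normalization, which the authors obtained with bcl2fastq 2.20.0.422, cutadapt, STAR 2.4.0j and featureCounts 1.6.4 (per the submitters' processing notes) on hg19, from a stranded mRNA kit; whether counting used the strand is not given in the sources used here. Of 57773 identifiers, 55538 had a symbol in the name table.

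In R 4.3.3, edgeR 4.0.16 fitted 1 quasi-likelihood model with 1 term per group to all 12 libraries (TMM, filterByExpr, 21518 genes), with Benjamini-Hochberg adjustment over all genes tested. SE is the log2 fold change over the square root of F. CPM are TMM-normalised. The study's thresholds were used (adjusted p under 0.05, absolute log2 fold change over 1). Totals ranged from 31567912 to 72328151 counts, which sets the floor of 3 counts. The genes and lists were chosen with earlier results of these data known. All 39 listed genes are accounted for; values per library are given for genes past both thresholds in any comparison and for the 5 subunits, and other pathway genes past both thresholds are named. ICAM1 is also given by range, which was chosen after its values were seen.

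Alternatives were DESeq2 1.42.0, its size factors, library totals, other filters, a replicate block, 2-group fits and leaving out each library. The scripts were tested on simulated data. Exon overlaps were read from Gencode (GRCh37) and promoters from RefSeq (GRCh38.p14).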

Additional observations from a re-analysis of the deposited data

Results flagged for a closer look

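By the edgeR test of siNTRK2-transfected directly against siBDNF-transfected senescent cells, 16 of the 36 listed genes and 6 of the 25 other pathway genes differed (16.7% of all genes tested). In log2 units, siNTRK2 minus siBDNF, the differences of the machinery genes were -0.49 for RELB, -0.51 for NFKBIA, -0.66 for NFKBIZ, 0.84 for MAP3K14, -0.62 for TNFAIP3, -0.26 for TNIP1, -0.60 for BIRC3 and -0.37 for TRAF3. Those of the target genes were -0.92 for ICAM1, 1.33 for VCAM1, -2.54 for CCL20, -2.59 for CSF3, -0.40 for TNFAIP2, -0.60 for IER3, -1.55 for PTGS2 and -0.19 for PTX3. Of the other pathway genes named in the report, TNFRSF1B differed by -0.52 and TRAF5 by 0.73. The summed level of the leukocyte markers was also lower with siNTRK2 (1.68 to 1.79 CPM) than with siBDNF (2.96 to 3.04 CPM), and its part in these differences was not tested.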

How the results depend on the processing

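Of the 73 calls of listed genes in the 4 comparisons, 59 were kept under every alternative that gave an adjusted p, 14 were lost under some (8 of them only when a library was left out) and 0 reversed. CHUK, TNFAIP2 and CSF3 with siBDNF and TNFAIP6 with siNTRK2, not called in the main analysis, were called under some alternatives. DESeq2 lowered the number of differentially regulated listed genes from 2 to 1 with siNTRK2 (CCL20 then had no adjusted p) and from 4 to 2 between the siRNAs, and that of all genes from 206 to 137 with siNTRK2 and from 131 to 71 with siBDNF. Requiring at least 10 counts in every library, which tests fewer genes, gave 1 listed gene with siNTRK2 and 2 between the siRNAs, and 1646 of all genes with senescence (3604 in the main analysis), 91 with siNTRK2, 61 with siBDNF and 110 between the siRNAs (250). Fits of the 2 groups alone gave 2 listed genes with siBDNF in place of 1. Leaving out 1 library at a time gave 1 to 3 differentially regulated listed genes with siNTRK2 and 1 to 2 with siBDNF. Calls over all genes then ranged from 2943 to 4804 with siNTRK2 (4548 with all libraries; lowest without siCtrl senescent library 1, and 3010 without library 3), from 2914 to 4651 with siBDNF (4412; lowest without siBDNF library 2, which also gave 87 differentially regulated genes in a range of 87 to 150) and from 2286 to 3249 between the siRNAs (3595; lowest without siBDNF library 3). The highest values with siNTRK2 (4804) and with siBDNF (4651) both came without siCtrl senescent library 2, and were above those with all libraries. Each of these fits has fewer samples, and what else moved the numbers was not tested.

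With the replicate number as a block, 29 listed genes were called with senescence, 17 with siNTRK2, 12 with siBDNF and 16 between the siRNAs, and 2 in place of 1 were differentially regulated with siBDNF, the added gene being CSF3. Same-numbered libraries did not detectably deviate together (mean correlation 0.0018 over 18 pairs, range -0.040 to 0.027, and 4 of 12 libraries correlated best with their own number). No pairing by number was thus detected, although counting noise in genes with few reads can hide one.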
